A study of Mus musculus with 8 samples.

Results

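Malat1, Neat1, Meg3, H19, Kcnq1ot1 and Gas5 are long noncoding RNA genes listed together as nuclear RNAs, although Gas5 RNA also reaches the cytoplasm. Their RNA was compared between PABPN1 A17/+ and wild-type tongue. They were taken as a named list and looked up by Ensembl identifier in the deposited count table. All 6 were present, among 2168 genes of an annotated long noncoding type and 19857 genes in all. The series holds 8 bulk libraries from the tongues of female mice aged 12 months, 4 from wild-type animals (WT) and 4 from animals carrying the allele named A17 of Pabpn1 over a wild-type allele (A17/+). No other allele and no treatment is given in the labels, and both groups share sex, age and tissue. Total RNA came from sections of the middle of the tongue and was converted to cDNA with an oligo-dT primer and a unique molecular identifier (mcSCRB-seq), so each count stands for a molecule captured at a poly(A) tail or at an internal run of A. The labels do not give the replicate numbers a meaning beyond separate samples of a genotype, so the p-values below set group differences against the spread between these libraries.

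PABPN1 binds the poly(A) tail of RNAs in the nucleus, stimulates poly(A) polymerase and, in human cells, also feeds polyadenylated nuclear noncoding RNAs, among them snoRNA host transcripts, to the nuclear exosome. Expansion of the alanine tract at its N terminus causes oculopharyngeal muscular dystrophy, which weakens the muscles of the eyelids and throat late in life and also affects the tongue. Of the 6 RNAs, Malat1 lies in nuclear speckles and Neat1 is the scaffold of paraspeckles. H19, Meg3 and Kcnq1ot1 come from imprinted clusters and Gas5 carries snoRNAs in its introns. The question was whether these RNAs differ in tissue where the decay and tail-making protein is altered.

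The counting method needs a poly(A) tail or an internal run of A, so the annotated 3′ ends are shown here, as the last 60 bases of each transcript model, 5′ to 3′ on the transcript strand. They are from the GENCODE M21 transcripts (GRCm38, the same build as mm10), and capitals mark the poly(A) signals AATAAA and ATTAAA. The models are Malat1-201 (chr19:5795690-5795749, minus strand), Neat1-202, the short Neat1 isoform (chr19:5842307-5842366, minus), Neat1-201, the long isoform (chr19:5824708-5824767, minus), Meg3-209 (chr12:109571667-109571726, plus), H19-202 (chr7:142575529-142575588, minus), Kcnq1ot1-201 (chr7:143203458-143203517, minus) and Gas5-218 (chr1:161038480-161038539, plus).
Malat1-201: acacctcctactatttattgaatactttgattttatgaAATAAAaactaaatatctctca
Neat1-202: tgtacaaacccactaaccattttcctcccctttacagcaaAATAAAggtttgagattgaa
Neat1-201: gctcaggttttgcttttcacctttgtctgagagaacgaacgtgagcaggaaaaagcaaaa
Meg3-209: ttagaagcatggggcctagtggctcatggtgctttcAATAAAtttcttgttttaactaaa
H19-202: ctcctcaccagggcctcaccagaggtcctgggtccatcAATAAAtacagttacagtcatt
Kcnq1ot1-201: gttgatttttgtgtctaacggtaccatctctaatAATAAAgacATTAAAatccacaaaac
Gas5-218: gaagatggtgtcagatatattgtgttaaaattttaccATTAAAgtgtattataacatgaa
A signal stands in the last 60 bases of every model but that of long Neat1. It starts 22 bases before the end in Malat1 and H19, 20 in short Neat1, 24 in Meg3 and 23 in Gas5, and Kcnq1ot1 has both forms, starting 26 and 17 bases before its end. Over all GENCODE M21 transcripts of at least that length, 34.5% of 141515 hold AATAAA or ATTAAA in the same window, and 31.5% of 30236 transcripts of a long noncoding type do. The search used the transcript strand only, and a match is a description of the letters, not a mapped cleavage site.

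Long Neat1 and Malat1 are known to end in a different way, by cleavage next to a tRNA-like structure, after which an A-rich tract folds with upstream uridine-rich stretches into a triple helix in place of a poly(A) tail. The stretch of Malat1 that holds these parts (87 bases, chr19:5795982-5796068, minus) and the end of long Neat1 (90 bases, chr19:5824708-5824797, minus) are shown because they bear on which molecules an oligo-dT primer can capture. Capitals mark the A-rich tract and the stretches of at least 12 bases, both rich in uridine, that the last 100 bases of long Neat1 share with the last 500 of Malat1, which are TTTCTTTTCCTGA (13 bases) and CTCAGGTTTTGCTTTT (16 bases).
Malat1: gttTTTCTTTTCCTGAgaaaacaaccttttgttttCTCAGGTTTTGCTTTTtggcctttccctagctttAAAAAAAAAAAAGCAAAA
Neat1: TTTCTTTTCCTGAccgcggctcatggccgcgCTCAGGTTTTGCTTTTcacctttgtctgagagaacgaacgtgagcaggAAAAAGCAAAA
On the transcript strand, the former was found in the last 100 bases of 2 of 139316 GENCODE transcripts (0.00144%) and the latter in 1 (0.000718%). Both stretches were taken from that window of long Neat1, which is itself among the transcripts searched, so the 1 transcript with the latter is long Neat1. The copies in the Malat1 model lie outside the window and were not counted. These percentages are therefore no independent measure of how rare the stretches are. The Malat1 tract stops 292 bases before the end of its transcript model and holds a run of 12 A. Internal runs of at least 10 A, on which an oligo-dT primer can also start, numbered 10 in Kcnq1ot1, whose longest was 41 A, and 6 in Meg3, whose longest was 16 A. Malat1 had 1 such run, which is the 12 A of the tract itself and not a separate site. The longest isoforms of Neat1, H19 and Gas5 had 0. The counts are not split by isoform, so long and short Neat1 could not be separated, and no count could be assigned to a tail or to an internal run.

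Of the 6 RNAs, H19 was higher in A17/+ tongue, 0 were lower and 5 did not pass the threshold (edgeR quasi-likelihood test, Benjamini-Hochberg adjusted p under 0.05 over all genes tested). A gene can pass the filter on low counts with the libraries of 1 genotype alone. Gas5 and Meg3 reached its level in all A17/+ but not all WT libraries. All 6 passed it, which left 5066 genes. In the same comparison 321 of those genes were higher and 132 lower, so 8.94% of all tested genes were called in either direction, 6.34% as higher and 2.61% as lower, against 1 higher and 0 lower of 6 here. H19 was also the 1 member whose 4 A17/+ levels all lay on the same side of the 4 WT levels, a pattern that 14.6% of all tested genes showed in either direction and 8.57% with A17/+ above WT. The median log2 fold change of the 6 was 0.27, beside 0.01 over all tested genes, and 3 of the 6 had a negative value. DESeq2 and limma-voom also called 0 lower, and 0 lower members had an unadjusted p under 0.05. Gas5 was the other member with an unadjusted p under 0.05, which 25.1% of all tested genes had. Levels below are CPM, each library's counts scaled to a common total over the tested genes and corrected by the trimmed mean of M-values (TMM), and fold changes are A17/+ relative to WT.

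**Figure D1:**
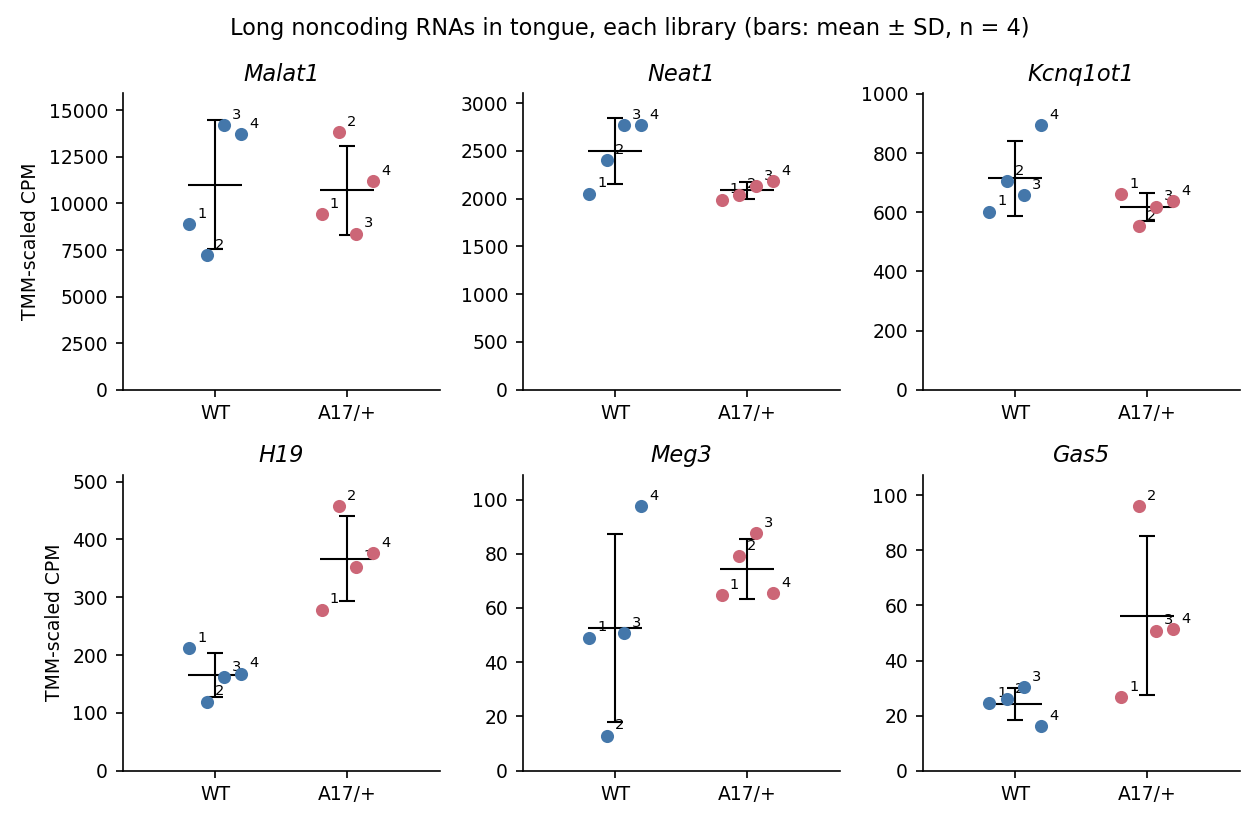
TMM-scaled CPM (y axis, from 0, its own range in each panel) of the 6 long noncoding RNAs in 4 WT and 4 A17/+ libraries, with points numbered by replicate and bars for mean ± SD. The 4 A17/+ levels of H19 all lie above the 4 WT levels, and in the other panels the groups overlap.

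The libraries differed in more than genotype. Totals ran from 205696 to 465014 counts in WT and from 395061 to 485326 in A17/+, and 12784 ± 1163 against 14314 ± 94.5 genes were detected (SD, n = 4 each; two-sided exact permutation test, p = 0.0286, the smallest that 4 against 4 allows). The mitochondrial share of counts was 5.17% ± 0.949 in WT and 8.71% ± 1.60 in A17/+ (exact permutation p = 0.0286), and genes whose longest transcript is under 1000 bases took 4.55% ± 0.993 and 7.17% ± 0.999 (exact permutation p = 0.0571). All annotated long noncoding RNA genes together made up 2.08% ± 0.255 of WT counts and 1.99% ± 0.150 of A17/+ counts (exact permutation p = 0.571). The 6 RNAs took 1.37% ± 0.300 and 1.21% ± 0.169 (exact permutation p = 0.343). Skeletal muscle markers summed to 83209 to 112355 CPM in WT and 104597 to 126481 in A17/+, with 3 of 7 higher and 0 lower. Fibroblast markers summed to 365 to 461 and 417 to 1107 CPM (2 of 5 higher). Dcn (mean 79.4 CPM in WT and 386 in A17/+) and Col3a1 were higher, while Lum, Col1a1 and Col1a2 did not pass (log2 fold changes 0.09, 0.34 and 0.62). Endothelial markers summed to 389 to 450.2 and 664 to 729 CPM (2 of 5 higher). Cd36 (mean 199 and 367 CPM) and Fabp4 were higher, while Pecam1, Cdh5 and Kdr did not pass (log2 fold changes 0.26, 0.25 and 0.40). Tongue epithelium markers summed to 12218 to 13486 and 9049 to 17299 CPM, with 1 of 7 lower (Dsp, log2 fold change -0.85) and 0 higher. Krt5, Krt13, Krt4 and Krt6a had positive log2 fold changes that did not pass (0.81, 0.68, 0.38 and 0.34). Krt14 and Krt84 had negative ones that did not pass (-0.43 and -0.33). No marker of these 4 lists was at 0 in all 8 libraries. Macrophage markers summed to 77.8 to 321 and 288 to 362 CPM, with 0 of 1 tested passing, and adipocyte markers to 9.70 to 21.7 and 66.9 to 113 CPM, with 1 of 1 tested higher (Fabp4, also an endothelial marker). Salivary gland markers had 922 counts in WT 1 and 3, 3 and 0 in WT 2 to 4, beside 7, 5, 9 and 20 in A17/+ 1 to 4, so WT 1 stood apart, and none of the 5 was tested. Without WT 1 the log2 fold change of H19 was 1.25 (edgeR adjusted p = 0.00192). The part of these differences in the results below was not tested, and in bulk tissue fewer cells of a type cannot be told apart from less RNA per cell.

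Malat1, the speckle RNA, is a gene of 6983 bases without an annotated intron in its longest model (ENSMUSG00000092341, chr19:5795690-5802672, minus). Its level was 8903, 7217, 14200.0 and 13719 CPM in WT 1 to 4, from 3995, 2233, 4196 and 2532 counts. In A17/+ 1 to 4 it was 9421, 13845, 8382 and 11214 CPM, from 4226, 4902, 2967 and 3934 counts. The lowest library, WT 2, and the highest, WT 3, were both WT, and the groups overlapped throughout. The means were 11010 ± 3480 CPM in WT and 10715 ± 2392 in A17/+ (SD, n = 4), a log2 fold change of -0.04 (SE 0.22, edgeR adjusted p = 0.937). The 95% interval of the fold change ran from 0.702 to 1.35. The coefficient of variation between WT libraries was 31.6%, where counting error alone gives 1.82%. The sign of so small a value turned to positive when any of WT 3, WT 4 or A17/+ 3 was left out, and when the trend over transcript length was removed from each library.

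Neat1, the paraspeckle scaffold, lies 22036 bases from Malat1 on the same strand (ENSMUSG00000092274, chr19:5824708-5845478, minus). WT 1 to 4 held 2053, 2405, 2768 and 2769 CPM, from 921, 744, 818 and 511 counts. The A17/+ libraries held 1989, 2042, 2130.1 and 2183 CPM, from 892, 723, 754 and 766 counts. All 4 A17/+ libraries were under the WT mean and 2 were under the lowest WT library, while WT 1 lay inside the A17/+ range. The means were 2499 ± 343 and 2086 ± 87.3 CPM, with a log2 fold change of -0.26 (SE 0.15, edgeR adjusted p = 0.301) and a 95% interval of the fold change from 0.671 to 1.04. The coefficient of variation was 13.7% in WT and 4.19% in A17/+, where counting error alone gives 3.58%. With that length trend removed, the log2 fold change was -0.09.

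The proteins that build these nuclear bodies were read from gene lists. Of 13 tested paraspeckle protein genes, 0 were higher and 1 was lower, with a median log2 fold change of -0.29. The lower gene was Taf15, an RNA-binding protein, at 472 ± 89.9 CPM in WT and 274 ± 61.6 in A17/+ (log2 fold change -0.77, SE 0.20, edgeR adjusted p = 0.0201). That call was lost when any of WT 3, WT 4, A17/+ 3 or A17/+ 4 was left out, with adjusted p = 0.0675 without WT 3. Of 17 tested speckle and splicing genes 0 passed in edgeR, DESeq2 or limma-voom, 2 had an unadjusted p under 0.05, and the median was -0.25. The smallest p there belonged to Tra2b, a splicing regulator, with a log2 fold change of -0.66 (edgeR adjusted p = 0.0962), and to Srsf2, an SR protein of speckles, with 0.85 (adjusted p = 0.176). Of the other genes near Malat1 and Neat1, 2 were tested and 0 passed: Map3k11, a kinase, had a log2 fold change of -0.04 (edgeR adjusted p = 0.972) and Ehbp1l1, an adaptor of membrane traffic, 0.04 (adjusted p = 0.935).

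**Figure D2:**
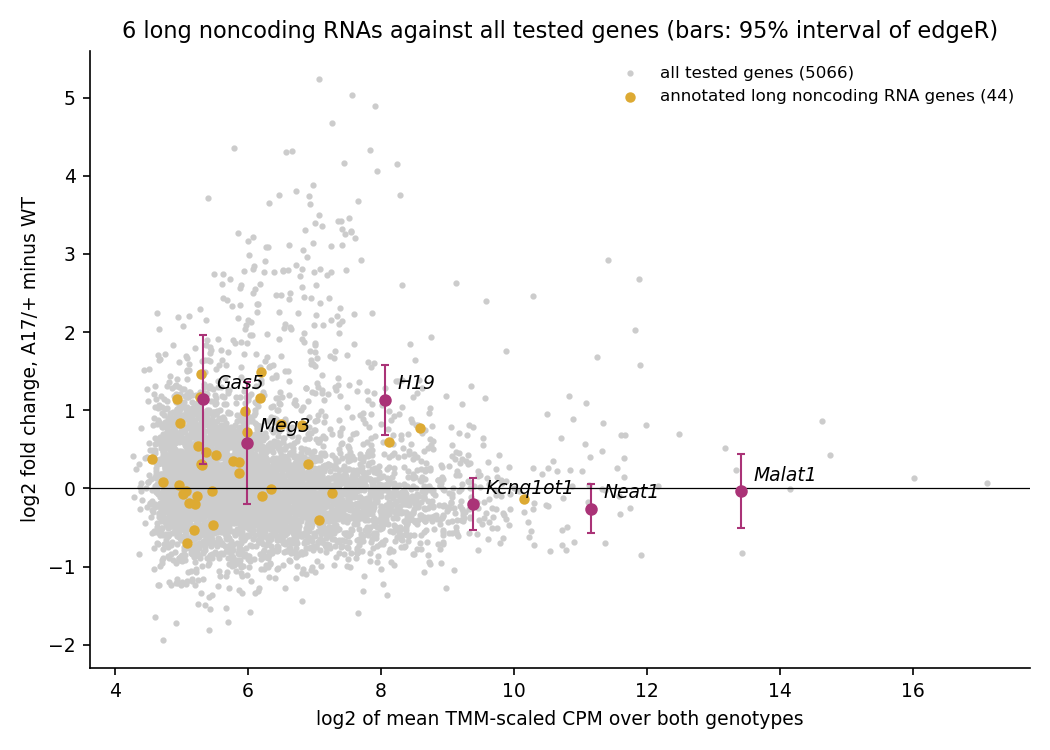
Log2 fold change, A17/+ minus WT (y axis), against log2 of the mean TMM-scaled CPM (x axis) for 5066 tested genes, with 44 annotated long noncoding RNA genes in yellow and the 6 named RNAs in purple with 95% intervals of edgeR. The intervals of H19 and Gas5 lie above 0, and those of Malat1, Neat1, Kcnq1ot1 and Meg3 cross it.

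H19, an imprinted RNA of fetal tissues and muscle that is transcribed from the maternal allele and carries the miRNA gene Mir675, is a gene of 2615 bases (ENSMUSG00000000031, chr7:142575529-142578143, minus). WT 1 to 4 held 212, 119.6, 162 and 168 CPM, from 95, 37, 48 and 31 counts. The A17/+ libraries held 279, 458, 353 and 376 CPM, from 125, 162, 125 and 132 counts. The groups did not overlap: the lowest A17/+ library, A17/+ 1, lay above the highest WT library, WT 1. The means were 165 ± 37.7 CPM in WT and 366 ± 73.7 in A17/+, a fold change of 2.20 with a 95% interval from 1.61 to 2.99 (log2 fold change 1.13, SE 0.21, edgeR adjusted p = 0.00486). By p, H19 ranked 53 of the 5066 tested genes. It was called in all 21 alternatives run, with log2 fold changes from 0.90 to 1.41. The lowest, 0.90 (adjusted p = 0.00704), came with the length trend removed, beside the larger share of short transcripts in A17/+ given above. Of 7 muscle markers 3 were higher beside it, Acta1, Ckm and Tnnt3, which lies near H19. Acta1, skeletal actin, had a log2 fold change of 1.68 (edgeR adjusted p = 0.00187) and Ckm, muscle creatine kinase, 1.09 (adjusted p = 0.00629). The rest did not pass. Myh1 had 0.52 (edgeR adjusted p = 0.102), Neb 0.23 (adjusted p = 0.422), Ttn, titin, 0.13 (adjusted p = 0.693) and Myh4, a fast myosin, -0.01 (adjusted p = 0.983). In all, 6 of the 7 had a positive value. The part of muscle RNA content in the H19 difference was not tested.

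The cluster around H19 on chromosome 7 held 4 tested genes, H19 included, and 2 of them were higher. The other was Tnnt3, fast skeletal troponin T, whose gene body lies 59.5 kb away on the plus strand. Tnnt3 held 1107 ± 350.3 CPM in WT and 2511 ± 518 in A17/+ (log2 fold change 1.18, SE 0.23, edgeR adjusted p = 0.0069), and with the length trend removed it fell short of the threshold at 0.32 (adjusted p = 0.372). Nctc1, a noncoding RNA 16.9 kb away known from skeletal muscle, held 41.5 ± 12.0 CPM in WT and 83.1 ± 25.8 in A17/+, from 51 and 122 counts in all (log2 fold change 1.00, SE 0.31, edgeR adjusted p = 0.0523). A17/+ 1, with 22 counts, lay among the WT libraries there, and without it the adjusted p was 0.0103. Lsp1, a leukocyte actin-binding protein gene 80.7 kb away, had a log2 fold change of -0.07 (edgeR adjusted p = 0.905). Mrpl23, a mitochondrial ribosomal protein gene, had 6 counts in WT and 15 in A17/+ and was not tested. Other genes of this cluster, Igf2 among them, were not analysed here.

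**Figure D3:**
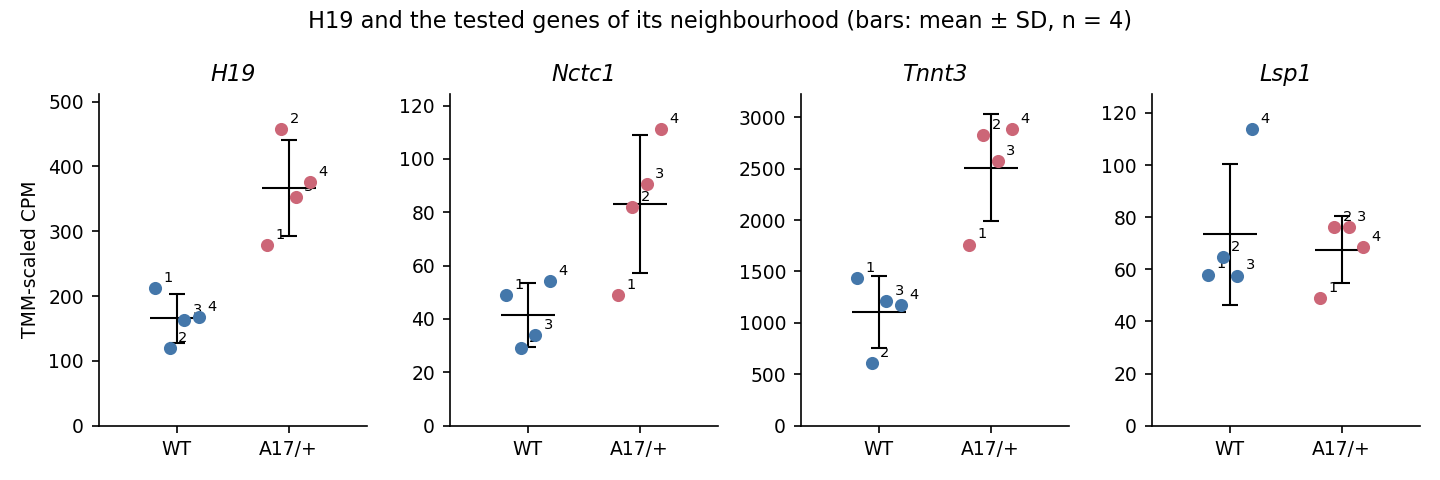
TMM-scaled CPM (y axis, from 0, its own range in each panel) of H19 and the 3 other tested genes of its cluster in 4 WT and 4 A17/+ libraries, with points numbered by replicate and bars for mean ± SD. The groups are apart for H19 and Tnnt3 and overlap for Nctc1 and Lsp1.

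Meg3, the maternally expressed RNA of the Dlk1-Dio3 cluster, spans 30726 bases (ENSMUSG00000021268, chr12:109541001-109571726, plus). WT 1 to 4 held 49.0, 12.9, 50.8 and 97.5 CPM, from 22, 4, 15 and 18 counts. The A17/+ libraries held 64.7, 79.1, 87.6 and 65.6 CPM, from 29, 28, 31 and 23 counts. WT 2 was the lowest and WT 4 the highest of all 8, and the A17/+ libraries lay between them. The log2 fold change was 0.59 (SE 0.37, edgeR adjusted p = 0.345), with a 95% interval of the fold change from 0.874 to 2.58. A single WT library decided its size: it was 0.21 without WT 2 and 0.90 without WT 4, and neither value passed. In the same cluster, Rian, a snoRNA-bearing noncoding RNA 32.2 kb downstream, had 15, 6, 11 and 21 counts in WT and 29, 15, 28 and 41 in A17/+ (log2 fold change 0.73, SE 0.45, edgeR adjusted p = 0.339). Mirg, a miRNA-bearing RNA of the cluster, had 4 counts in each group, Rtl1, a retrotransposon-derived gene, had 2 in each, Dio3os had 0 and 1, and Begain had 1 and 0, numbers too low at this depth to show a difference.

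Kcnq1ot1 is a paternally expressed antisense RNA that silences neighbours in the Kcnq1 cluster, and its single model is unspliced and 93092 bases long (ENSMUSG00000101609, chr7:143203458-143296549, minus). WT 1 to 4 held 602, 705, 657 and 894 CPM, from 270, 218, 194 and 165 counts. The A17/+ libraries held 659.9, 554, 619 and 638 CPM, from 296, 196, 219 and 224 counts. WT 4 was the highest library and A17/+ 2 the lowest, with the rest intermixed, although all 4 A17/+ libraries were under the WT mean. The log2 fold change was -0.20 (SE 0.16, edgeR adjusted p = 0.455), and the 95% interval of the fold change ran from 0.691 to 1.09. The gene overlaps Kcnq1, a potassium channel gene, on the other strand. Whether counting used strand is not given in the sources used here. Kcnq1 itself had 6 counts over all 8 libraries, and the part of Kcnq1 RNA in the Kcnq1ot1 counts was not tested. The share of Kcnq1ot1 counts that began at the internal runs of A given above was not tested.

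Of 3 tested genes in the Kcnq1 cluster, Kcnq1ot1 included, 0 passed in edgeR, DESeq2 or limma-voom, and 0 had an unadjusted p under 0.05. Nap1l4, a histone chaperone, had a log2 fold change of -0.02 (edgeR adjusted p = 0.955) and Osbpl5, a lipid transfer protein, -0.33 (adjusted p = 0.607). The other genes of the cluster did not pass the filter and were not tested. Cdkn1c, a cell cycle inhibitor, had 12 counts in WT and 42 in A17/+, and Cd81, a tetraspanin, 9 and 79. By library, Cd81 had 1, 1, 6 and 1 counts in WT and 7, 24, 25 and 23 in A17/+. Tssc4 had 1 and 7, Slc22a18 2 and 6, Ascl2 1 and 2, and Phlda2 0 and 1. Counts of this cluster are not scaled, and library totals averaged 320624 in WT and 430328 in A17/+.

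Gas5, a host of snoRNAs in its introns, is also a target of nonsense-mediated decay in the cytoplasm, with a short reading frame and a 5′ end of the kind found in ribosomal protein genes (ENSMUSG00000053332, chr1:161034422-161038539, plus). WT 1 to 4 held 24.5, 25.9, 30.5 and 16.3 CPM, from 11, 8, 9 and 3 counts. The A17/+ libraries held 26.8, 96.0, 50.9 and 51.3 CPM, from 12, 34, 18 and 18 counts. A17/+ 2, 3 and 4 lay above every WT library, and A17/+ 1 lay among them. The means were 24.3 ± 5.92 and 56.2 ± 28.9 CPM, a fold change of 2.20 with a 95% interval from 1.24 to 3.90 (log2 fold change 1.14, SE 0.39, edgeR adjusted p = 0.0746). The size rested on A17/+ 2 and the call on A17/+ 1: without A17/+ 2 the log2 fold change was 0.75 (adjusted p = 0.196), and without A17/+ 1 it was 1.34 (adjusted p = 0.0126). With 31 WT and 82 A17/+ counts in all, counting error alone gives a coefficient of variation of 40.6% in WT, above the 24.4% observed. Gas5 overlaps Zbtb37, a zinc finger gene on the other strand, which had 209 counts in all and a log2 fold change of -0.11 (edgeR adjusted p = 0.865). The other tested genes near Gas5, Klhl20 with -0.21 (adjusted p = 0.669) and Rc3h1 with 0.31 (adjusted p = 0.557), did not pass.

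**Figure D4:**
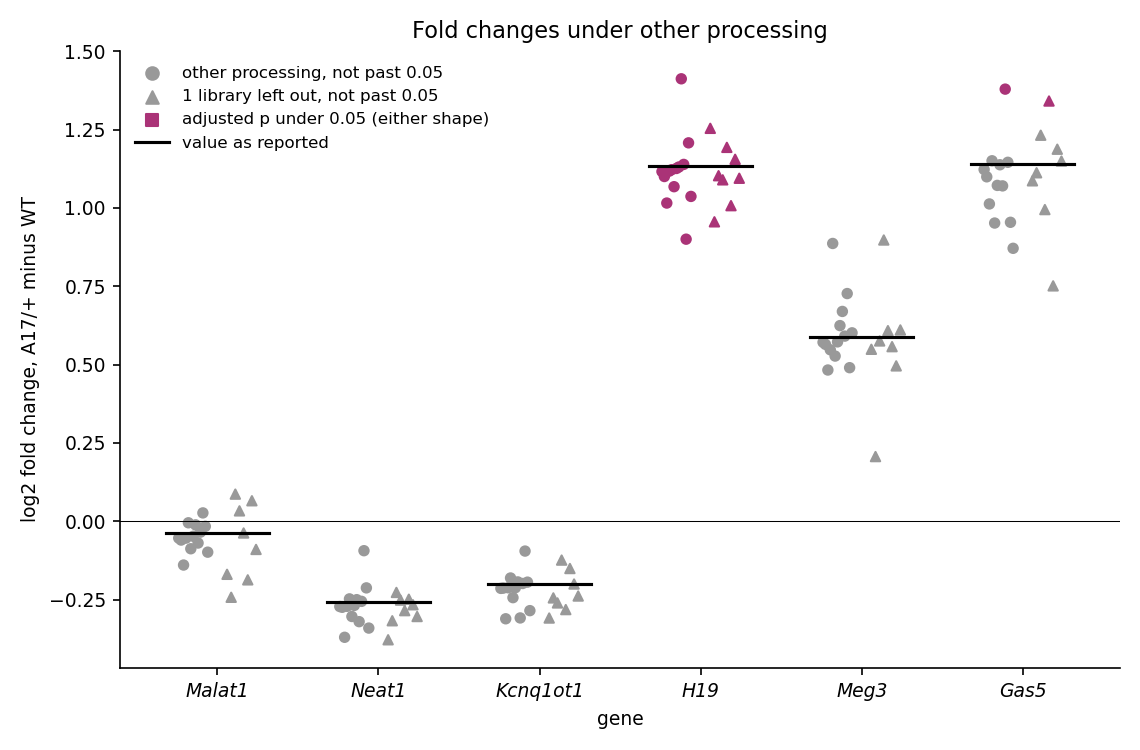
Log2 fold change, A17/+ minus WT (y axis), of each of the 6 RNAs under the other processing choices (circles) and with 1 library left out (triangles), with a line for the value as reported and purple where the adjusted p was under 0.05. H19 is purple throughout, Gas5 at 2 points, and the other 4 RNAs nowhere.

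Among snoRNA host genes, 20 of the list were in the table and 6 were tested, of which 1 was higher and 0 lower, with a median log2 fold change of 0.55, and DESeq2 called 2 and limma-voom 0. The higher gene was Rpl23a, a ribosomal protein gene, at 83.6 ± 5.40 CPM in WT and 304 ± 179 in A17/+ (log2 fold change 1.85, SE 0.40, edgeR adjusted p = 0.0145), and with the length trend removed it was 0.49 (adjusted p = 0.200). It also lost its call with limma-voom (adjusted p = 0.0557), without WT 3 (adjusted p = 0.0721) and without WT 4 (adjusted p = 0.0558). The untested hosts, all of a noncoding type, had at most 31 counts in either group. Chosen after their values were seen, Zfas1 had 1 count in WT and 15 in A17/+, Snhg9 had 0 and 24, and Snhg6 had 3 and 15. Snhg12 had 20 and 11, and Snhg17 had 22 and 16. A17/+ 1 held 0, 1 and 1 counts of Zfas1, Snhg9 and Snhg6. These counts are not scaled, and library totals averaged 320624 in WT and 430328 in A17/+. Of 12 tested genes of nonsense-mediated decay, 0 passed in edgeR, DESeq2 or limma-voom, and 1 had an unadjusted p under 0.05. Upf1, its helicase, had a log2 fold change of -0.70 (edgeR adjusted p = 0.0639).

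Of 13 tested genes of nuclear polyadenylation and RNA decay, out of 28 in the table, 0 were higher and 1 was lower, with a median log2 fold change of -0.20. The lower gene was Zcchc8, the scaffold of the nuclear exosome targeting complex, at 106 ± 34.1 CPM in WT and 51.4 ± 4.50 in A17/+, so it fell by 1.00 on the log2 scale (SE 0.26, edgeR adjusted p = 0.0228). The call was lost when any of WT 3, WT 4, A17/+ 3 or A17/+ 4 was left out, with adjusted p = 0.0686 without WT 3, and with limma-voom (adjusted p = 0.0505). Pabpn1 itself had 31 counts in WT and 34 in A17/+ and was not tested, and the counts do not separate its alleles.

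Over the whole class, 44 annotated long noncoding RNA genes were tested, 6 were higher and 0 lower (1 lower at an unadjusted p under 0.05, and 0 lower by DESeq2 or limma-voom), which is 13.6% called beside 8.90% of the other tested genes. Some alternatives called lower genes of the class, 3 of them with no filter and 1 each with the length trend removed (beside 3 higher), with limma-trend, without WT 1, without both libraries numbered 1 and without A17/+ 2. The median log2 fold change of the class was 0.31, and it was 0.09 with the length trend removed, 0.12 with limma-trend, 0.20 with library totals alone, 0.18 without WT 1, 0.19 without A17/+ 1 and 0.18 without both. H19 was among the 6, and the rest were Gm44386 with 1.49 (edgeR adjusted p = 0.0108), Myhas, an antisense RNA of the myosin heavy chain locus, with 1.47 (adjusted p = 0.0324), Prr33, annotated as noncoding in this release, with 1.18 (adjusted p = 0.0355), A930016O22Rik with 1.16 (adjusted p = 0.0215) and Peg13, an imprinted RNA, with 1.15 (adjusted p = 0.0431). Of these, H19 alone reached the level of the filter in all WT libraries. The others passed the filter only with their A17/+ libraries, where they were higher. In WT 1 to 4, Myhas had 14, 3, 5 and 4 counts, Prr33 11, 4, 8 and 6, and Peg13 11, 6, 5 and 2. The share called is therefore no independent measure of the class. How many other tested genes passed the filter in this way was not counted. The count of 6 moved with single libraries, as did the count over all tested genes. Without WT 3 it was 1 of 52, beside 210 of all 5622 tested genes. Without WT 1 it was 10 of 49, beside 890 of 5461, and without A17/+ 1 it was 10 of 48, beside 771 of 5491. Without WT 4 it was 3 of 50, beside 337 of 5605. Without A17/+ 3 it was 2 of 52, beside 247 of 5450, and without A17/+ 4 it was 2 of 48, beside 232 of 5333. With DESeq2 it was 4 of 44, beside 433 of 5066. With limma-voom it was 2 of 44, beside 233 of all 5066 tested genes. With the length trend removed it was 4 of 44, beside 495 of 5061. With no filter it was 19 of 2168, beside 853 of 19857, and without both libraries numbered 1 it was 14 of 47, beside 1025 of 4907. Of the other known noncoding RNAs, 9 were tested and Peg13 was the 1 that passed in edgeR, with 0 in DESeq2 (Peg13 adjusted p = 0.104) or limma-voom (adjusted p = 0.101). Peg13 also lost its call with the replicate block (adjusted p = 0.0864) and without any library but WT 1 or A17/+ 1, with adjusted p = 0.121 without A17/+ 3. Xist, the X-inactivation RNA, had -0.13 (edgeR adjusted p = 0.609). Among 6 tested imprinted genes of the growth network outside these clusters, Gnas, which encodes a stimulatory G protein subunit, was higher with a log2 fold change of 0.89 (edgeR adjusted p = 0.0123), and so was Dcn, the proteoglycan decorin, with 2.24 (adjusted p = 0.0123). Dcn is also in the fibroblast marker list.

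The genes whose levels ran most closely with each RNA over the 8 libraries were found by Pearson correlation of log2 CPM. Both genotypes were included, so a genotype difference in both genes also shapes r. The part of library depth and tissue makeup in r was not tested. For H19 the closest genes were Ckmt2, mitochondrial muscle creatine kinase (r = 0.99), Mpc1, a mitochondrial pyruvate carrier (r = 0.99), and Uqcrb, a subunit of respiratory complex III (r = 0.99). For it, 177 genes had r over 0.9. Ckmt2, Mpc1 and Uqcrb were themselves higher in A17/+, with log2 fold changes of 1.19, 2.30 and 2.21. For Gas5 they were Eif5a, a translation factor (r = 0.98), Mknk2, a kinase of translation factor eIF4E (r = 0.98), and D8Ertd738e (r = 0.98), with 134 genes over 0.9. Their own log2 fold changes were 1.96, 0.77 and 1.49, and none passed (edgeR adjusted p = 0.112, 0.106 and 0.0635). For Malat1 they were Nexn, an actin-binding protein of muscle (r = 0.96), Rasa4, a Ras regulator (r = 0.95), and Myh4 (r = 0.94), with 9 genes over 0.9. Neat1 ran with Socs6, Atad2 and Polr1a (r = 0.97, 0.97 and 0.96), Kcnq1ot1 with Zfp638, Cant1 and Mmrn1 (r = 0.96, 0.95 and 0.93), and Meg3 with Cr1l, Atp5a1 and Kansl3 (r = 0.95, 0.95 and 0.95).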

How the data were processed

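Bulk RNA from 8 mouse tongues was measured by mcSCRB-seq. Per the submitters' processing notes the tools were STAR 2.7.5a, HTSeq (no version), UMI-tools 1.1.1 and cutadapt 2.10, on mm10, and settings, strand and annotation release are not given in the sources used here. The authors deposited raw counts per Ensembl gene, and per-library log2 values for 10709 genes, which were used in an alternative only. Replicates were not pooled, and no library duplicated another.

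Genes were named from GENCODE M21, which matched 19677 of 19857 identifiers. Genes were kept by filterByExpr (minimum count 10, minimum total 15), scaled by TMM and tested with the robust quasi-likelihood test of edgeR 4.0.16 in R 4.3.3. Genotype was the single factor, with Benjamini-Hochberg adjustment over all 5066 genes, at 0.05. Intervals are 95%. Single library measures were compared by a two-sided exact permutation test over 70 assignments. Alternatives covered scaling, filter, test (DESeq2 1.42.0, limma 3.58.1), replicate block, left-out libraries, mitochondrial removal, transcript length, thinning and the deposited log2 values.

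The named RNAs and lists were chosen with earlier results of these data known. From each list other than the cell type markers, up to 4 genes past the threshold with the smallest p were named, or up to 2 as values where none passed. A gene that this rule named is not reported here. Neighbourhood genes are given by counts even when untested. Up to 5 further noncoding RNAs by fold change, and the 3 genes most correlated with each RNA, were added.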

Additional observations from a re-analysis of the deposited data

How the results depend on the processing

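H19 kept its direction and its call in all 21 alternatives (log2 fold change 0.90 to 1.41, largest adjusted p = 0.0287 without WT 3; 0.96 to 1.25 with 1 library left out). Neat1 (-0.38 to -0.09), Kcnq1ot1 (-0.31 to -0.10) and Meg3 (0.21 to 0.90) kept their direction and were called in 0 of 21. Malat1 ran from -0.24 to 0.087 with 1 library left out (0.087 without WT 3, 0.033 without WT 4, 0.065 without A17/+ 3) and was 0.027 with the length trend removed, never called. Gas5 was called without WT 1 and A17/+ 1 together (1.38, adjusted p = 0.0194) and ran from 0.75 to 1.34 with 1 library left out. It fell below the filter in thinned counts, so that alternative gave no value for it. The cause of these changes was not tested.

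Beside 453 of 5066, the genes past the threshold numbered 233 of 5066 with limma-voom and 853 of 19857 with no filter. They numbered 1025 of 4907 without both libraries numbered 1, and 808 of 10709 with limma-trend on the deposited log2 values. With 1 library left out they ran from 210 (without WT 3) to 890 (without WT 1). Beside 6 of 44, the long noncoding RNA genes numbered 2 of 44, 19 of 2168, 14 of 47 and 13 of 256 tested under the same 4 settings. They numbered 3 of 23 in thinned counts, and 1 to 10 with 1 library left out. Library totals alone moved the median of all genes to -0.11, with 279 higher and 289 lower. With the length trend removed the split was 259 and 236. With the replicate block 410 genes passed and no call of the 6 RNAs changed (H19 1.13, adjusted p = 0.0105; Gas5 1.07, adjusted p = 0.0915). Same-numbered libraries correlated at 0.0041, 0.0719, -0.1041 and -0.1595 in their deviations from the group means. Pairs with different numbers ran from -0.2606 to 0.2513. Whether the numbers pair animals was not tested, and the labels do not say.

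The same alternatives were run on 12 other named genes, chosen after seeing the data, and none reversed. Gnas kept its call in all 21, Tnnt3 and Dcn in 20, Gm44386 in 19, Taf15 and Rpl23a in 17, Zcchc8 in 16, A930016O22Rik in 15, Myhas in 13 of 20, and Peg13 and Prr33 in 8 of 20. Nctc1 gained a call in 3. With the length trend removed Gm44386 was 0.20 and Myhas 0.58. Counting error alone gave a coefficient of variation in WT of 40.6% for Gas5 and 32.3% for Meg3.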
